A study of Mus musculus with 8 samples.

Results

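Translation initiation factors were taken as all genes whose symbol starts with Eif1 to Eif6, except Eif2ak2. A total of 43 of the 15095 gene symbols on the array were members, read by 45 of 21776 placed probes. The choice used names and not measured values. The arrays compared 2 populations of mouse CTL-EN T cells given the human beta-c chain of the GM-CSF receptor either as wild type or with the Ser585Gly change, in which a serine of the intracellular part is replaced by glycine. Both populations were kept for 12 h without factor in RPMI medium with 0.5% CS and taken then (0 h), or after a further 12 h with 50 ng/mL human GM-CSF (12 h), a cytokine that signals through beta-c. Each of 8 two-colour spotted arrays set 1 of these 4 RNAs directly against another, so that the 4 sides of a square of time and mutation were each measured on 2 arrays with the dyes exchanged.

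The design limits what the values can show. Every population carried an introduced human chain, and that chain was not measured here. No array held cells kept a further 12 h without GM-CSF, so the cytokine's effect and that of longer culture cannot be told apart. The labels do not say whether a population was 1 clone. The 2 arrays of a side hold the same 2 RNAs, which were also used in a companion series, so the p-values measure the spread between hybridisations and not between cultures. Fewer transcripts per cell and a shift in the mix of cells cannot be told apart in such RNA.

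Initiation is the step that places a ribosome on the start codon of an mRNA. The GTP-binding factor eIF2 brings the initiator tRNA to the small subunit, which also carries eIF1, eIF1A, eIF3 and eIF5, while eIF4E, eIF4G and the helicase eIF4A prepare the capped end of the mRNA. Cells set the rate at 2 well known points, the kinases that phosphorylate eIF2 and so block its exchange factor eIF2B, and the 4E-BP proteins that hold eIF4E away from eIF4G until mTOR phosphorylates them. Activated and growing T cells are known to raise protein synthesis, in part through these controls.

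Promoter sequences are shown for Eif2s2 and Eif1ad, the members that rose most over 12 h in wild type, and for Eif2b4, Eif5a and Eif4e. Eif2b4 was the member that differed most between the populations. The sequences of Eif5a and Eif4e were picked because they hold CACGTG, the E-box bound by Myc and Max. Each sequence is the 250 bases before a RefSeq transcript start, in GRCm38.p6, written 5′ to 3′ on the strand of the gene, with CACGTG in capitals. Their positions are chr2:154892907-154893156 (minus strand) for Eif2s2, chr19:5366563-5366812 (plus strand) for Eif1ad, chr5:31193140-31193389 (minus strand) for Eif2b4, chr11:69921387-69921636 (minus strand) for Eif5a and chr3:138527018-138527267 (plus strand) for Eif4e.
Eif2s2: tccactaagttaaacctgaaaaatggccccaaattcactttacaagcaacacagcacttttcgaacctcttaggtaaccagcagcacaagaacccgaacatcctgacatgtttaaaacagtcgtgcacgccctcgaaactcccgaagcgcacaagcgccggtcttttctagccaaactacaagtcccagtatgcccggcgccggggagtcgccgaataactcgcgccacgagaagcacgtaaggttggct
Eif1ad: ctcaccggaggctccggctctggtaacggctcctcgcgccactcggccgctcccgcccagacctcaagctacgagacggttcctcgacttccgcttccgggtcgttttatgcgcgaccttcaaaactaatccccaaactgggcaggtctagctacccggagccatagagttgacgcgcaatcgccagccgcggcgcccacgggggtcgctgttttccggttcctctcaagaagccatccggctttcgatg
Eif2b4: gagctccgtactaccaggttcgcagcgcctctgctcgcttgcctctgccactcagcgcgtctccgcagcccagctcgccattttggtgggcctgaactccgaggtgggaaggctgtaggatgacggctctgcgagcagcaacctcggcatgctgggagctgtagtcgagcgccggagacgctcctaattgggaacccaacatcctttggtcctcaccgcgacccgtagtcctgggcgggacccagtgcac
Eif5a: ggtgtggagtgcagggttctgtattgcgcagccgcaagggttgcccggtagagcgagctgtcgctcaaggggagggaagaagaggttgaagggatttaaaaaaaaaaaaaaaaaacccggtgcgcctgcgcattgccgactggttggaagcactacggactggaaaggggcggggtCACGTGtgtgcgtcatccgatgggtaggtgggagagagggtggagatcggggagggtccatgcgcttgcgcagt
Eif4e: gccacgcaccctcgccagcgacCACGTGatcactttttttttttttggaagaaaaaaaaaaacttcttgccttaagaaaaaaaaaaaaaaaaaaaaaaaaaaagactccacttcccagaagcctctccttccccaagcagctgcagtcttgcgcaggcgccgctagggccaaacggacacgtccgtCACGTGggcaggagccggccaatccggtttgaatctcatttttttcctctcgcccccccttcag

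The E-box stood 68 bases before the start in the Eif5a window shown, 1 of 6 windows for that gene. Of those 6 windows, 3 held it. The Eif4e window shown, 1 of 2 for that gene, held 2 of them. Windows of 300 bases (250 before to 50 after a start) were listed for 33 of the 43 members, with 46 windows. Those missing were Eif4g2, Eif6, Eif3h, Eif3e, Eif4e3, Eif2s3x-ps1, Eif1a, Eif4ebp1, Eif2b3 and Eif3i. On either strand, CACGTG was found for 7 of the 33 (21.2%), which were Eif1b, Eif3a, Eif3f, Eif3k, Eif4a1, Eif4e and Eif5a, and for 10.3% of the 11589 genes named on the array with a window. Of the 7 listed members that passed as higher in either time comparison below, Eif5a alone held it. TGATGCAA, a sequence known from the amino acid response, was found for 0 of the 33 members and 0.863% of the array's genes. Its relative TGATGAAA was found for 1 of the 33, Eif2s3x, and also for 0.863% of the array's genes. Genes have unequal numbers of windows, and these matches describe letters and not binding.

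The names on the array needed care. The deposited table's names follow another pin order than the spots, so each name was placed through its 8 ratios and a recovered print order. By this order 244 wells named empty had a median brightness at the 1.33 percentile of all spots and cytosolic ribosomal protein probes at the 99.0 percentile, against 47.2 and 46.8 in the order as deposited. Of the 45 member probes, 42 were also the nearest match by ratios at their place; the others were those of Eif1a, Eif3c and Eif2d. All 43 members lay above the 25th percentile of brightness, 25 of them above the 90th. Of 11 T-cell markers, 9 were measured, with a median brightness percentile of 91.2 (Cd4 was at 1.21). The medians of the myeloid, B-cell, erythroid, mast-cell and fibroblast lists lay between 12.0 and 47.3. Over time, 2 T-cell markers and 1 erythroid marker passed as lower in each population. Between the populations, 1 T-cell and 1 mast-cell marker passed as lower and 1 myeloid marker as higher at each time. The T-cell marker was Ptprc, with fitted log2 differences of −1.59 at 0 h and −1.73 at 12 h, larger than those of any member. The others were Mcpt8 (−0.70 and −0.71) and Cd68 (0.51 and 0.60). The part of these markers in the results below was not tested.

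A single array stood apart. On array 1 of the 0 h mutation comparison, the log2 ratios of all probes had an SD of 0.541, against 0.296 to 0.365 on the other 7 arrays. The 2 arrays of that comparison correlated over all probes with r = 0.124. The 12 h mutation pair was also low, at 0.219, where the time pairs reached 0.515 in wild type and 0.509 in Ser585Gly. Among the members, its 2 arrays differed by a median of 0.427 on the log2 scale, against 0.122 to 0.144 for the other 3 pairs. For 18 of the 43 members they differed by more than 0.5, at most for Eif4b (2.06). Counts are therefore given with and without this array. In the text, array 1 of a pair has the 12 h or the Ser585Gly RNA in Cy5 and array 2 has it in Cy3, and all ratios are turned to 12 h over 0 h or Ser585Gly over wild type.

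**Figure D1:**
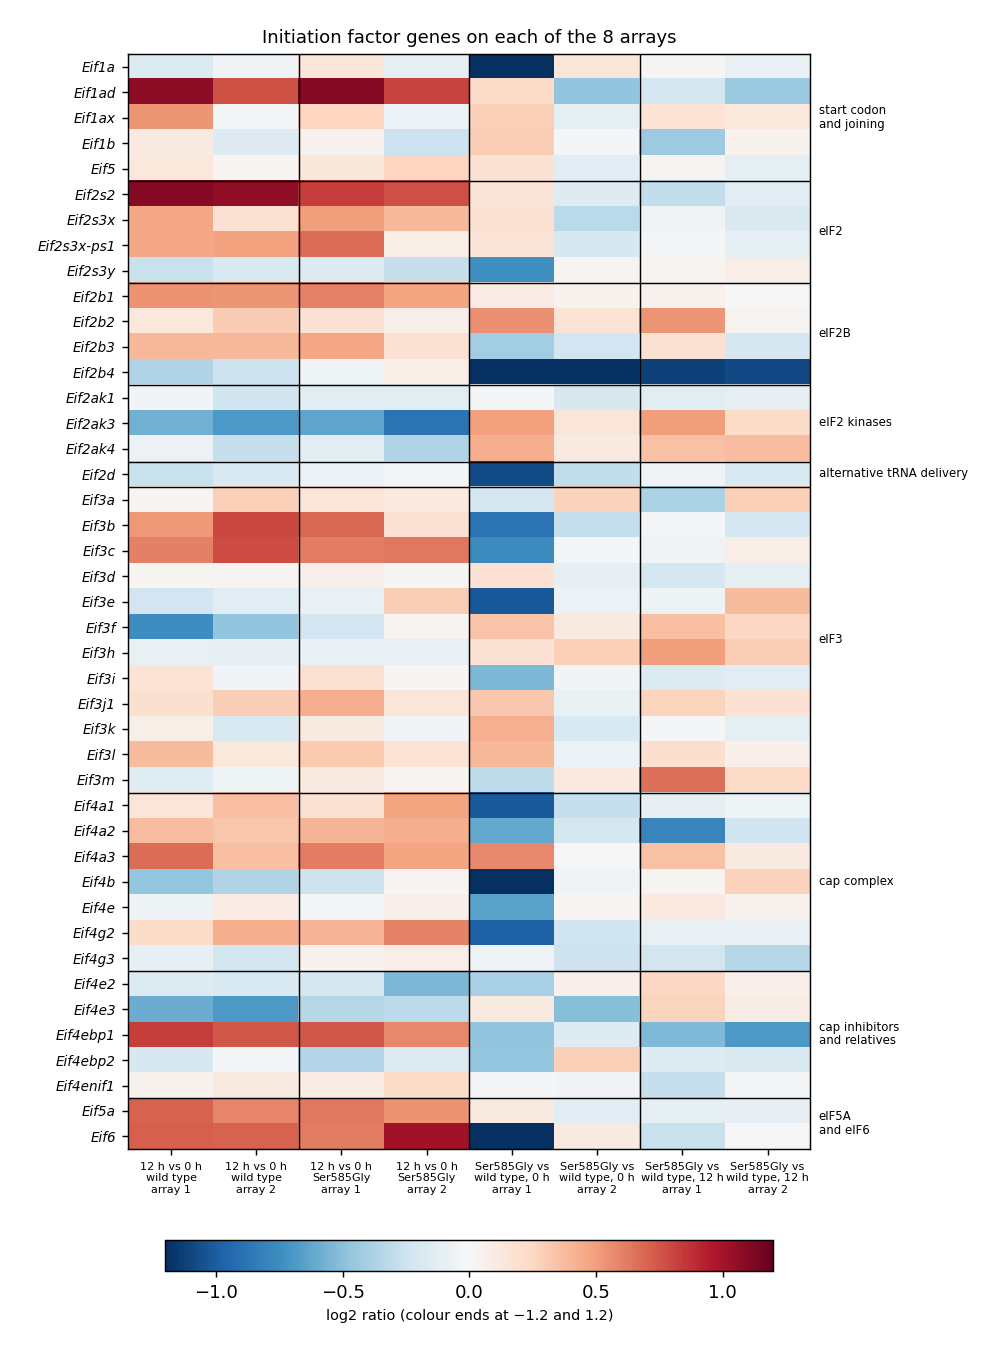
Log2 ratio of each of the 43 members (rows, grouped by role) on each of the 8 arrays (columns, in pairs with exchanged dyes); red is higher at 12 h or in Ser585Gly, blue is lower, and the colour ends at −1.2 and 1.2. Eif2s2, Eif1ad, Eif4ebp1, Eif5a and Eif6 are red on all 4 time arrays, and Eif2b4 is blue on all 4 mutation arrays.

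**Figure D2:**
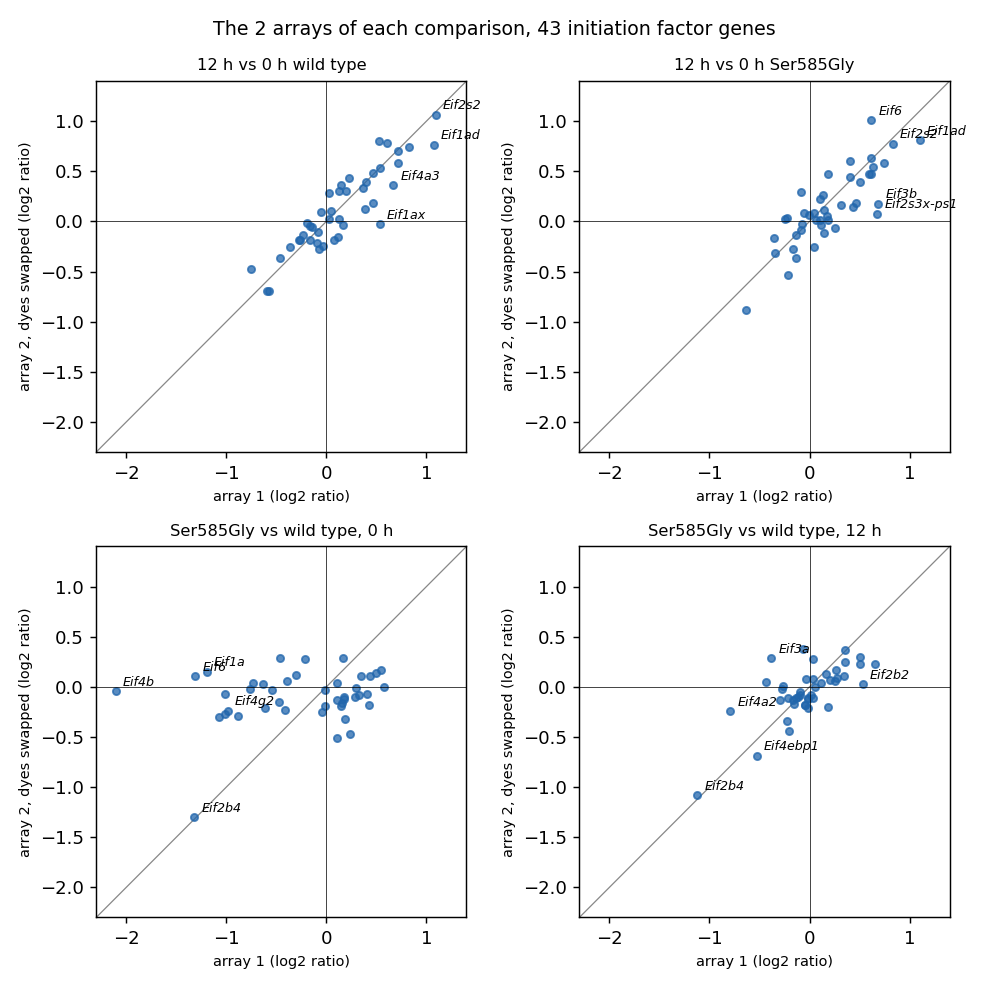
Log2 ratio on array 2 against array 1 of each comparison for the 43 members, 1 point per gene, with the line of equality. Points follow the line in the time comparisons and scatter widely at 0 h between the populations, where 18 members lie more than 0.5 from equal values and Eif2b4 lies on the line.

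Over 12 h with GM-CSF, more members rose than fell in both populations. In wild type 8 of 43 passed as higher and 3 as lower (limma, Benjamini-Hochberg adjusted p under 0.05 over all probes), beside 5.6% and 4.58% of all genes, or 10.2% in either direction. In Ser585Gly 10 passed as higher and 1 as lower, beside 6.35% and 5.25%, or 11.6% in either direction. The 7 members that passed as higher in both were Eif2s2, Eif1ad, Eif4ebp1, Eif5a, Eif3c, Eif2b1 and Eif4a3, and Eif2ak3 fell in both. The 2 comparisons share no RNA directly but come from 1 fit. The members are bright, and all 43 stayed when dim probes were left out. In wild type 10 then passed as higher and 3 as lower, beside 15.3% of the remaining genes in either direction. In Ser585Gly the counts were then 12 and 1, beside 17.4%.

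The shift of the whole list was small. The members' median log2 change was 0.12 in wild type and 0.13 in Ser585Gly, against −0.01 and 0.00 for all genes. Both arrays were above 0 for 22 members and below 0 for 16 in wild type, and for 25 and 9 in Ser585Gly. Of the members, 1 (Eif2s2 in wild type) reached a 2-fold change. At an unadjusted p under 0.05, 18 members passed in wild type and 19 in Ser585Gly, beside 25.2% and 25.9% of all genes.

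The counts moved with single arrays and with the averaging of dye pairs. With pairs averaged, the calls of Eif2b1 and Eif4a3 were lost in both populations. Those of Eif2s3x-ps1, Eif3c and Eif3f were lost in wild type, and those of Eif2s3x and Eif4g2 in Ser585Gly. Without the array that stood apart, 13 members passed as higher and 5 as lower in wild type (16.2% of all genes in either direction), and 13 and 2 in Ser585Gly (17.4%). Without wild-type array 1 the wild-type counts were 4 and 0 (2.97% of all genes), and without its array 2 they were 3 and 1 (2.13%). Without Ser585Gly array 1 no member passed in Ser585Gly (1.52% of all genes did), and without its array 2 the counts were 4 and 1 (4.83%). With each dye pair averaged to 1 value before the fit, 4 rose and 2 fell in wild type (5.2% of all genes), and 6 and 1 in Ser585Gly (6.96%).

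**Figure D3:**
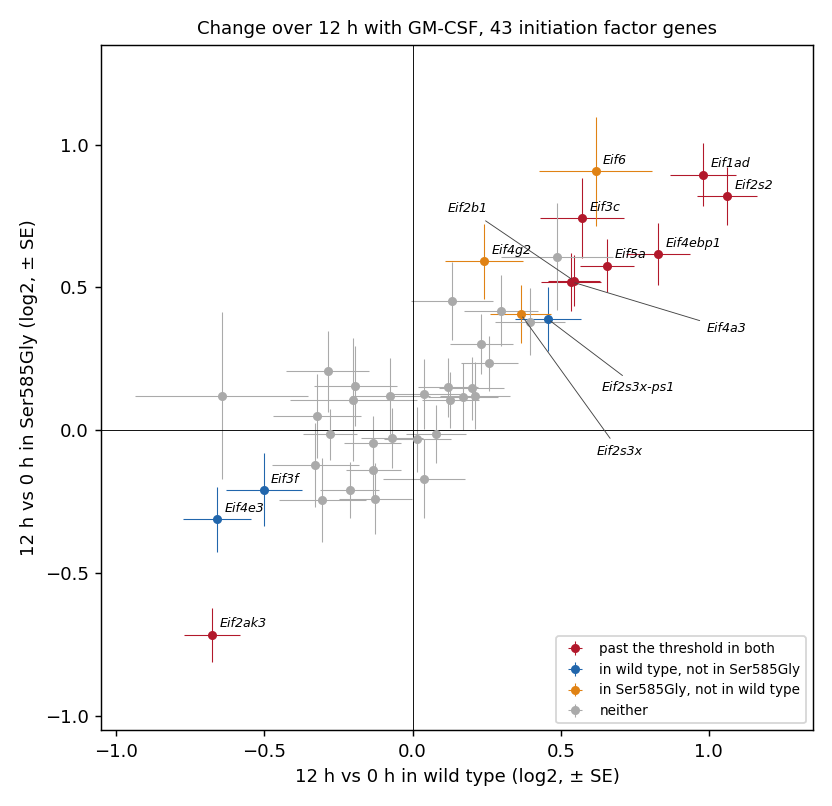
Fitted log2 change over 12 h in wild type (x axis) and in Ser585Gly (y axis) with SE bars for the 43 members, coloured by where the change passed. The genes past the threshold in both lie in the upper right, except Eif2ak3 at −0.68 and −0.72; the difference between the axes did not pass for any member.

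Of the 5 measured members grouped with start-codon selection, 1 passed, Eif1ad. It is grouped here by its name and its eIF1A-like domain, and a part in start-codon selection was not tested. Eif1ad had log2 ratios of 1.07 and 0.77 on the wild-type arrays and 1.10 and 0.81 on the Ser585Gly arrays. All 4 arrays were well above 0. The fitted rise was 0.98 ± 0.11 (SE) in wild type (1.97-fold, limma adjusted p = 0.00161) and 0.89 ± 0.11 in Ser585Gly (1.86-fold, adjusted p = 0.00236). Without Ser585Gly array 1 the latter adjusted p was 0.055. The other 4 measured members of this group, Eif1a, Eif1ax and Eif1b (eIF1A and an eIF1 relative) and Eif5 (the GTPase activator of eIF2), lay between −0.20 and 0.20 in wild type and between −0.17 and 0.15 in Ser585Gly, and none passed. Eif1ad overlaps the gene Banf1 in GRCm38.p6, and which of the pair its probe reads was not tested.

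Among the eIF2 subunits, Eif2s2, which encodes the beta subunit, showed the largest rise of any member in wild type. Its log2 ratios were 1.09 and 1.07 on the wild-type arrays and 0.83 and 0.77 on the Ser585Gly arrays. The arrays of a pair lay close together, and both Ser585Gly arrays lay below both wild-type arrays. The fitted rise was 1.06 ± 0.10 in wild type (2.09-fold, limma adjusted p = 0.00079) and 0.82 ± 0.10 in Ser585Gly (1.76-fold, adjusted p = 0.00247). The difference of −0.24 between them did not pass (adjusted p = 0.748). Without Ser585Gly array 1 the adjusted p of the second rise was 0.0532.

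The gamma subunit is read by probes named for 3 near-identical genes. Which of these genes each probe reads was not tested, so the probes are not taken as separate readings of each. Eif2s3x, the X-linked copy, had ratios of 0.47 and 0.18 in wild type and 0.50 and 0.39 in Ser585Gly, with a fitted rise of 0.41 ± 0.10 in Ser585Gly that passed (limma adjusted p = 0.0406) and of 0.36 ± 0.10 in wild type that did not (adjusted p = 0.0624). In wild type it passed without the array that stood apart (0.32, adjusted p = 0.0358) and under 6 other alternatives. Eif2s3x-ps1, named as a pseudogene of it, had ratios of 0.46 and 0.48 in wild type and 0.67 and 0.08 in Ser585Gly, with a rise of 0.46 ± 0.11 in wild type that passed (adjusted p = 0.04) and of 0.39 ± 0.11 in Ser585Gly that did not (adjusted p = 0.0665), but did under 4 alternatives. The difference between the populations was not past the threshold for either gene (adjusted p = 0.939 and 0.903). Eif2s3y, the Y-linked copy, was at −0.27 and −0.19 in wild type and −0.17 and −0.28 in Ser585Gly and did not pass (adjusted p = 0.22 and 0.695). Thus the X-linked and pseudogene probes lay above 0 on all 4 arrays and the Y-linked probe below 0 on all 4. A second, dimmer Eif2s3x probe was at −0.20 in wild type and 0.04 in Ser585Gly and did not pass. Both calls were weak. The Eif2s3x call was lost on leaving out any 1 of 7 arrays (all but array 1 of the 0 h mutation pair), with adjusted p between 0.0522 and 0.246. The Eif2s3x-ps1 call was lost without any 1 of 6 arrays (those 7 except Ser585Gly array 2), with adjusted p between 0.0701 and 0.333.

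Of eIF2B, the complex that reloads eIF2 with GTP, 4 subunits were measured and 1 rose. Eif2b1, the alpha subunit, had log2 ratios of 0.53 and 0.53 in wild type and 0.59 and 0.48 in Ser585Gly, the 4 arrays lying within a narrow range. Its fitted rise was 0.55 ± 0.09 in wild type and 0.52 ± 0.09 in Ser585Gly (limma adjusted p = 0.00819 and 0.00831). These calls were lost without wild-type array 1 (adjusted p = 0.065) or array 2 (0.108), and without Ser585Gly array 1 (0.135) or array 2 (0.0578). Eif2b3, the gamma subunit, lay at 0.40 and 0.39 in wild type and 0.46 and 0.18 in Ser585Gly without passing (adjusted p = 0.188 and 0.0724). It did pass without the array that stood apart (adjusted p = 0.0416 and 0.0424). Eif2b2 and Eif2b4, the beta and delta subunits, did not pass over time, at 0.21 and −0.28 in wild type and 0.12 and −0.01 in Ser585Gly. Without the array that stood apart, Eif2b4 passed as lower in wild type (−0.29, adjusted p = 0.047).

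Of the 3 eIF2 kinases measured, 1 fell. Eif2ak3 (PERK, which responds to unfolded protein in the endoplasmic reticulum) had log2 ratios of −0.57 and −0.69 in wild type and −0.63 and −0.89 in Ser585Gly. All 4 arrays were low. Its fitted change was −0.68 ± 0.09 in wild type (limma adjusted p = 0.00423) and −0.72 ± 0.09 in Ser585Gly (adjusted p = 0.0032), and these missed the threshold without wild-type array 1 (0.0531) and without Ser585Gly array 1 (0.073). Eif2ak4 (GCN2, which senses uncharged tRNA) lay at −0.21 in both, and Eif2ak1 (HRI, the haem-regulated kinase) at −0.13 and −0.14, and neither passed. Eif2d, which can deliver tRNA to the ribosome without eIF2, was at −0.32 and 0.05 and did not pass.

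Of the scaffold eIF3, 12 subunits were measured, and their median change was 0.06 in wild type and 0.14 in Ser585Gly. Eif3c, a core subunit, had log2 ratios of 0.60 and 0.78 in wild type and 0.61 and 0.64 in Ser585Gly. It was high on all 4 arrays, with a fitted rise of 0.57 ± 0.14 (limma adjusted p = 0.0399) and 0.74 ± 0.14 (adjusted p = 0.0136). Its wild-type call was lost without any 1 of 5 arrays, array 2 of either mutation pair, either wild-type array or Ser585Gly array 1 (adjusted p between 0.0781 and 0.278), and its Ser585Gly call without Ser585Gly array 1 (0.142). Eif3f, a subunit known to bind mTOR, went the other way in wild type, at −0.75 and −0.47. On the Ser585Gly arrays it was at −0.23 and 0.03, on either side of 0. Its fitted change of −0.50 ± 0.13 in wild type passed (adjusted p = 0.0447), and that of −0.21 ± 0.13 in Ser585Gly did not (adjusted p = 0.385). The difference of 0.29 between the populations was not past the threshold either (adjusted p = 0.749). The Eif3f call was lost without any 1 of 6 arrays (all but array 1 of the 0 h mutation pair and Ser585Gly array 2; adjusted p between 0.0544 and 0.305), and with print-tip loess its value was −0.18.

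The other 10 eIF3 subunits did not pass in either population. Eif3b, another core subunit, was above 0 on every time array, at 0.52 and 0.81 in wild type and 0.69 and 0.18 in Ser585Gly (limma adjusted p = 0.156 and 0.0817). Without the array that stood apart it passed in both (0.60 and 0.49, adjusted p = 0.0233 and 0.0441). Eif3d, Eif3h and Eif3a, the last being the largest subunit, lay between −0.13 and 0.17 in the fitted changes of both populations. Eif3e, Eif3i, Eif3j1, Eif3k, Eif3l and Eif3m lay between −0.29 and 0.30.

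Among the genes grouped with the cap-binding complex, 2 relatives of its proteins moved. Eif4a3 rose in both populations and Eif4g2 passed in Ser585Gly. Eif4a3, a helicase relative that sits in the exon junction complex, had log2 ratios of 0.67 and 0.36 in wild type and 0.61 and 0.47 in Ser585Gly. All were above 0, and the fitted rise was 0.54 ± 0.10 and 0.52 ± 0.10 (limma adjusted p = 0.0146 and 0.0149). It was lost without wild-type array 1 (adjusted p = 0.0971) or 2 (0.133) and without Ser585Gly array 1 (0.122) or 2 (0.126). Eif4g2, a scaffold that lacks the eIF4E-binding site of eIF4G, was at 0.22 and 0.44 in wild type and 0.41 and 0.60 in Ser585Gly. It was above 0 on all 4, with a fitted rise of 0.24 ± 0.13 in wild type (adjusted p = 0.315) and 0.59 ± 0.13 in Ser585Gly (adjusted p = 0.0253). Without the array that stood apart Eif4g2 passed in both (0.32 and 0.51, adjusted p = 0.0396 and 0.00655). In Ser585Gly it was lost without any 1 of 5 arrays, array 2 of the 12 h mutation pair and all 4 time arrays (adjusted p between 0.0532 and 0.183).

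The measured genes for the central cap proteins did not pass over time in the main fit. Eif4g1 and Eif4h had no counted probe. Eif4e, the cap-binding protein itself, had log2 ratios of −0.06 and 0.10 in wild type and −0.01 and 0.06 in Ser585Gly, close to 0 on all 4 arrays (limma adjusted p = 0.789 and 0.664). Its paired helicases were above 0 on all 4 arrays, Eif4a1 at 0.15, 0.37, 0.18 and 0.48 and Eif4a2 at 0.37, 0.34, 0.41 and 0.44, without passing. Eif4a1 did pass in Ser585Gly without the array that stood apart (0.37, adjusted p = 0.0312). Eif4a2 passed in both populations with print-tip loess, median centring, the deposited table and the comparison as a random block. In wild type it also passed with dim probes left out. A second, dimmer Eif4a2 probe was at −0.19 in wild type and 0.05 in Ser585Gly, so the probes of that gene did not give the same sign in wild type. That probe is annotated through an RNA record and the locus holds small nucleolar RNA genes; which transcript it reads was not tested, and the same holds for the probe of Eif5. Eif4b, a cofactor of the helicase, was at −0.46 and −0.36 in wild type and −0.25 and 0.02 in Ser585Gly. Its fitted change of −0.64 ± 0.29 in wild type did not pass (adjusted p = 0.227), while without the array that stood apart it was −0.41 and passed (adjusted p = 0.0154). Eif4g3, an eIF4G scaffold, was at −0.07 and −0.03.

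The genes for proteins that hold back or replace eIF4E did not move one way. Eif4ebp1, which encodes 4E-BP1, had log2 ratios of 0.83 and 0.74 in wild type and 0.74 and 0.58 in Ser585Gly. All 4 arrays were high. The fitted rise was 0.83 ± 0.11 in wild type (1.78-fold, limma adjusted p = 0.00315) and 0.62 ± 0.11 in Ser585Gly (1.53-fold, adjusted p = 0.00985), the latter lost without Ser585Gly array 1 (0.159) or array 2 (0.0628). Eif4ebp2, its relative, was at −0.13 and −0.24 and did not pass. Eif4e3, a cap-binding relative of eIF4E, was at −0.60 and −0.69 in wild type and at −0.34 and −0.31 in Ser585Gly. It was low on all 4 arrays and fell in wild type (−0.66 ± 0.11, adjusted p = 0.0104). In Ser585Gly it did not pass (−0.31 ± 0.11, adjusted p = 0.134), and the difference was not past the threshold (0.35, adjusted p = 0.68). The wild-type call was lost without wild-type array 1 (0.0952) or array 2 (0.0918). Eif4e2, another cap-binding relative that represses translation, was at −0.30 and −0.24, and Eif4enif1, the eIF4E transporter 4E-T, at 0.13 and 0.11, and neither passed. Without the array that stood apart, Eif4e2 passed as lower in Ser585Gly (−0.34, adjusted p = 0.0456).

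Eif5a and Eif6 act outside the start-codon steps. Eif5a encodes the hypusine-carrying factor that helps ribosomes through difficult stretches, and its log2 ratios were 0.71 and 0.58 in wild type and 0.63 and 0.54 in Ser585Gly. All 4 arrays lay well above 0, and the fitted rise was 0.66 ± 0.09 (1.58-fold, limma adjusted p = 0.00421) and 0.58 ± 0.09 (1.49-fold, adjusted p = 0.00659). It was lost in wild type without wild-type array 2 (0.0618), and in Ser585Gly without array 1 (0.101) or array 2 (0.0559). Eif6 keeps the large subunit from joining too early, and had ratios of 0.71 and 0.70 in wild type and 0.62 and 1.01 in Ser585Gly. The fitted rise was 0.91 ± 0.19 in Ser585Gly (1.87-fold, adjusted p = 0.0211) and 0.62 ± 0.19 in wild type, where it did not pass (adjusted p = 0.0862). Its residual error included a ratio of −1.31 on the array that stood apart, against 0.11 on the paired array. Without that array the rise was 0.75 and 0.77 and passed in both (adjusted p = 0.00346 and 0.00283). The Ser585Gly call was lost without Ser585Gly array 1 (0.169) or array 2 (0.0781), and its adjusted p was 0.05 without array 1 of the 12 h mutation pair.

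**Figure D4:**
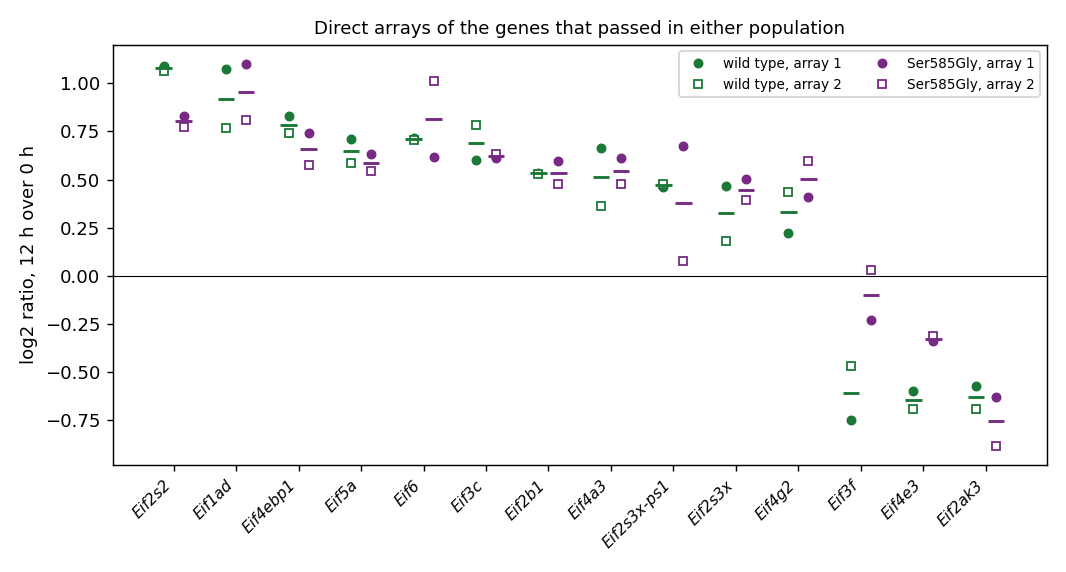
Log2 ratio of 12 h over 0 h on each direct array for the 14 members that passed in either population, with green for wild type, purple for Ser585Gly, filled circles for array 1, open squares for array 2 and bars for the mean of the pair. Of these, 11 lie above 0 on all 4 arrays; Eif4e3 and Eif2ak3 lie below 0 on all 4, and Eif3f on 3.

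No member passed the test for a difference between the populations in its change over time. The interaction passed for 0 of 43 members in limma, beside 0.0596% of all genes (0.0331% higher and 0.0265% lower), and for 0 under each of 18 alternatives. At an unadjusted p under 0.05 it passed for 4 members, beside 7.41% of all genes, and the smallest adjusted p was 0.612 for Eif3e. The largest fitted differences (Ser585Gly minus wild type) were 0.77 for Eif4b, 0.49 for Eif3e, 0.37 for Eif2d, 0.35 for Eif4g2 and 0.35 for Eif4e3. The first 4 of these genes were at −2.10, −1.01, −1.07 and −0.98 on the array that stood apart and at −0.05, −0.07, −0.30 and −0.24 on its pair. The SEs were 0.34 for Eif4b and 0.16 for Eif3e. Without that array the differences were 0.30 for Eif4b, 0.32 for Eif3e, 0.18 for Eif2d, 0.19 for Eif4g2 and 0.44 for Eif4e3, the largest then being that of Eif4e3, followed by Eif3f at 0.42.

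Between the populations at 0 h, 1 member differed. Eif2b4, the delta subunit of eIF2B, was lower in Ser585Gly, with log2 ratios of −1.32 and −1.30 at 0 h and −1.12 and −1.08 at 12 h. All 4 mutation arrays were low and those of each pair nearly equal, the array that stood apart included. The fitted difference was −1.34 ± 0.09 at 0 h (0.395-fold, limma adjusted p = 0.000384) and −1.08 ± 0.09 at 12 h (0.475-fold, adjusted p = 0.00115). Both calls held under all 18 alternatives, the values ranging from −1.51 to −1.31 at 0 h and from −1.44 to −1.04 at 12 h.

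For the family as a whole, 0 of 43 members passed as higher and 1 as lower at 0 h, beside 2.37% and 2.36% of all genes (4.73% in either direction). The members' counts were again 0 and 1 without the array that stood apart, while the share of all genes was 1.72%. The members' median difference was −0.08, against 0.00 for all genes, and both arrays were above 0 for 6 members and below 0 for 15. The other large fitted differences at 0 h rested on arrays far apart. Eif4b (−0.84) had ratios of −2.10 and −0.05, Eif2d (−0.59) of −1.07 and −0.30, Eif4g2 (−0.52) of −0.98 and −0.24, and Eif4a1 (−0.52) of −1.01 and −0.28. Without array 1 they were −0.15, −0.29, −0.29 and −0.27, and none passed in either fit. The dimmer Eif4a2 probe, which does not stand for its gene in the counts, was at −0.69 and −0.81 at 0 h and −0.65 and −0.76 at 12 h (fitted −0.85 and −0.61, limma adjusted p = 0.00736 and 0.0359). The brighter one had ratios of −0.61 and −0.21 at 0 h and −0.80 and −0.24 at 12 h and did not pass (adjusted p = 0.0694 and 0.11).

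At 12 h, 0 of 43 members passed as higher and 2 as lower in Ser585Gly, beside 1.08% and 0.881% of all genes (1.96% in either direction). The counts were again 0 and 2 on leaving out the array that stood apart, beside 3.31% of all genes. Besides Eif2b4 the other was Eif4ebp1, with log2 ratios of −0.53 and −0.69 at 12 h and −0.47 and −0.15 at 0 h. It was low on all 4 mutation arrays. The fitted difference at 12 h was −0.56 ± 0.11 (0.676-fold, limma adjusted p = 0.0447), and at 0 h it was −0.35 ± 0.11 and did not pass (adjusted p = 0.111). The 12 h call was lost without any 1 of 6 arrays (both of the 12 h mutation pair and all 4 time arrays; adjusted p between 0.0954 and 0.445). It was also lost with print-tip loess (−0.41, adjusted p = 0.173), median centring (0.0845) and dye pairs averaged (0.135). Of the other large values, Eif4a2 (−0.47), Eif3f (0.41) and Eif3h (0.36, a subunit of eIF3) did not pass. Eif3f had ratios of 0.36 and 0.25 and Eif3h of 0.50 and 0.30, above 0 on both arrays. The members' median difference was −0.08, against −0.01 for all genes.

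The genes next to Eif2b4 on chromosome 5 were read after its values had been seen, in the gene order of GRCm38.p6. The next measured gene on one side, Ppm1g, a protein phosphatase, was at −1.10 and −1.26 at 0 h and −1.06 and −0.99 at 12 h (fitted −1.17 and −1.04, limma adjusted p = 0.00196 and 0.00386). The gene after it, Nrbp1, was at −0.58 and −0.69 at 0 h and −0.95 and −0.69 at 12 h (fitted −0.75 and −0.70, adjusted p = 0.0222 and 0.0418). Both Nrbp1 calls were lost with dye pairs averaged. Eif2b4 and these 2 neighbours were thus low on all 4 mutation arrays. Cad, Krtcap3, Ift172, Zfp512, Gpn1 and Slc4a1ap of the same stretch were also below 0 on all 4, with smaller fitted differences. On the other side, Gtf3c2 had ratios of −0.86, −0.37, −0.11 and 0.05 and did not pass. The 28 measured genes of the stretch other than Eif2b4, Ppm1g and Nrbp1, with Gtf3c2 among them, had a median difference of −0.14 at 0 h (from −0.64 to 0.26) and −0.09 at 12 h (from −0.63 to 0.27), with 0 higher and 1 lower at each time. That gene was Cad at 0 h and Zfp512 at 12 h. The Ppm1g call at 12 h was lost without either array of that pair (adjusted p = 0.0809 and 0.0546). The Nrbp1 calls were lost without any 1 of 5 arrays at 0 h (adjusted p up to 0.12) and of 6 at 12 h (up to 0.389).

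**Figure D5:**
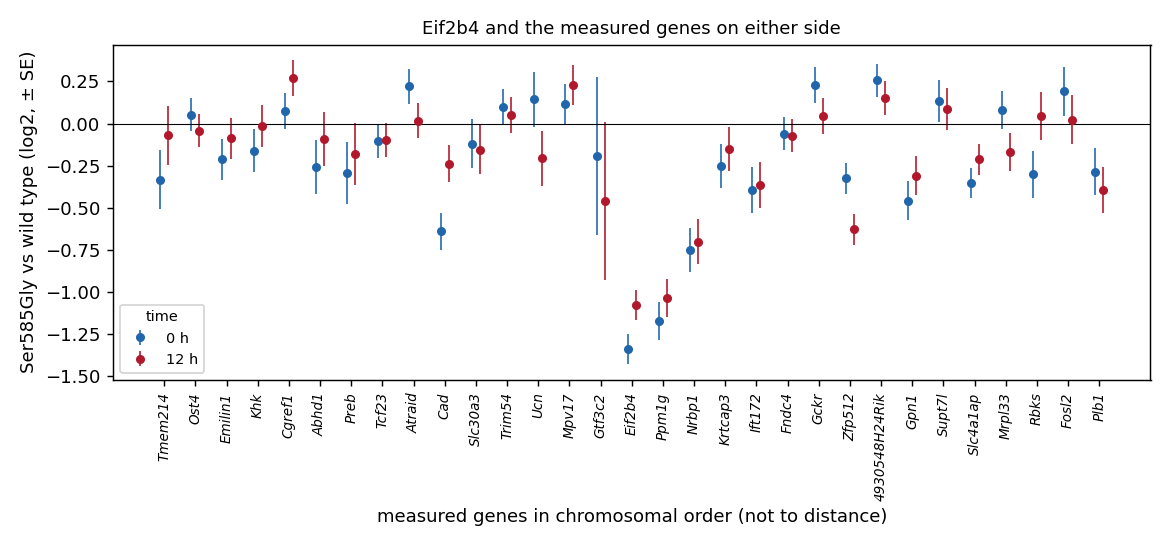
Fitted log2 difference between Ser585Gly and wild type with SE bars at 0 h (blue) and 12 h (red) for Eif2b4 and the 15 measured genes on either side, in chromosomal order and not to distance. Eif2b4, Ppm1g and Nrbp1 lie between −1.34 and −0.70 at both times, below every other gene of the stretch.

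Genes that feed into or follow initiation were described from a list of 45, of which 40 were measured. In wild type 9 passed as higher and 3 as lower over time, beside 5.6% and 4.58% of all genes, and in Ser585Gly 6 and 4, beside 6.35% and 5.25%. Atf4, whose mRNA is itself translated more when eIF2 is phosphorylated, had log2 ratios of 1.11 and 1.06 in wild type and 1.23 and 1.08 in Ser585Gly (fitted 1.13 and 1.10, limma adjusted p = 0.00117 and 0.00139). It was high on all 4 arrays. Of the eIF2 kinase genes, Eif2ak3 fell, while Eif2ak4, Eif2ak1 and Eif2ak2 (−0.10 and −0.08) did not pass. A link between these transcripts and Atf4 was not tested. The termination factor Etf1 rose by 0.65 and 0.94, the mTOR-dependent repressor Larp1 by 0.78 and 0.86, and the helicase Ddx3x by 0.65 and 0.62. Eef1e1, listed with the elongation factors, rose by 0.77 and 1.07 (limma adjusted p = 0.00958 and 0.00227). Its wild-type call was lost without wild-type array 1 (log2 rise 0.80) or array 2 (0.85). Etf1 missed the threshold without wild-type array 1 (adjusted p = 0.149) or 2 (0.133), without Ser585Gly array 1 (0.0637), or, in wild type, without the latter (0.0508). Larp1 missed it without wild-type array 2 (0.0517) or Ser585Gly array 1 (0.0513), and Ddx3x without wild-type array 2 (0.0687) or Ser585Gly array 1 (0.112) or 2 (0.061).

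The other genes named here act on the cap complex or mTOR. Pdcd4, an inhibitor of eIF4A, had the largest change of the list, with ratios of −1.79 and −1.63 in wild type and −1.66 and −1.47 in Ser585Gly (fitted −1.66 and −1.61, limma adjusted p = 0.00012 and 0.000148). Mknk2, a kinase of eIF4E, was low on all 4 arrays, at −0.74 and −0.76 in Ser585Gly, and at −0.71 on wild-type array 2 and lower still on array 1. It fell in both (−0.99 and −0.62, limma adjusted p = 0.00315 and 0.0201), the second call being lost without Ser585Gly array 1 (0.193) or 2 (0.164). Genes that act on mTOR went both ways. Sesn2, an inhibitor of mTOR signalling, was at 0.75 and 0.69 in wild type and 0.42 and 0.39 in Ser585Gly. Its fitted rise passed in wild type only (0.75 and 0.38, limma adjusted p = 0.00509 and 0.0681). Rptor, another listed mTOR gene, also passed as higher in wild type only (0.49 and 0.05, adjusted p = 0.0247 and 0.82). These calls held under 16 and 9 of 17 alternatives. The difference between the populations did not pass for Sesn2 (−0.38, limma adjusted p = 0.625) or Rptor (−0.43, adjusted p = 0.502). Ddit4, another inhibitor of mTOR signalling, was at −0.63 and −0.32 in wild type and −1.01 and −0.94 in Ser585Gly (fitted −0.47 and −0.97, adjusted p = 0.0246 and 0.00128). At 0 h it was higher in Ser585Gly (0.88 and 0.76 on the 2 arrays, fitted 0.82, adjusted p = 0.00647, and 0.0569 without array 2). Its wild-type call was lost without any 1 of 6 arrays (adjusted p between 0.0504 and 0.2). Between the populations the list had 3 genes higher and 0 lower at 0 h (Ddit4, Rps6kb2 and Ddit3), beside 2.37% and 2.36% of all genes, and 1 higher and 0 lower at 12 h (Rps6kb2), beside 1.08% and 0.881%. With dye pairs averaged, the time calls of Mknk2 in Ser585Gly and of Ddit4 and Rptor in wild type were lost, as was the Ddit3 call at 0 h. Rps6kb2, an S6 kinase, was at 0.66 and 0.62 at 0 h and 0.78 and 0.88 at 12 h, high on all 4 mutation arrays (fitted 0.71 and 0.75, adjusted p = 0.0124 and 0.0121). Rps6kb2 passed at neither time with dye pairs averaged. It missed the threshold without array 2 at 0 h (0.0765) and without array 1 (0.152) or 2 (0.197) at 12 h.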

How the data were processed

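Per the labels' protocols, total RNA was extracted with Trizol, labelled by first-strand synthesis with Cy3 or Cy5 and hybridised in pairs. The scanner files as deposited hold foreground and local background intensity for each of 23040 spots per array. The deposited value table holds log2 ratios made by the authors with limma, per the submitters' processing notes; which background correction and loess they chose the notes do not say. It correlated with the ratios used here at r = 0.655 to 0.935 per array, and at 0.948 to 0.996 once background was subtracted and print-tip loess used, so it served as an alternative.

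Starting from the scanner intensities, background was corrected by normexp (offset 50), arrays were normalized by global loess (span 0.3, control spots at weight 0), and limma 3.58.1 in R 4.3.3 fitted mutation, time, their interaction and a dye term to the 8 arrays, with 4 residual and 4.355 prior degrees of freedom. Adjustment of p-values followed Benjamini-Hochberg and covered all 21776 probes. A gene stands for its brightest probe, and 2 members had a second one. Names were updated by gene identifier. The position recovered for 1012 coded controls was the nearest match by ratios in 94.1%, and 90.3% of placed probes were nearest at theirs; 15 probes found no place and 6 shared one and were left out. Precision is limited by the number of arrays. The fit was tested on simulated data.

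The members, the list of other translation genes, the motifs and the markers were chosen with earlier results of these data known. Members past the threshold in a time or mutation comparison, and the 5 largest changes of each, are named with the array values of that comparison. The 5 largest interaction values are named with part of their array values. The neighbours of Eif2b4 were chosen after its values were seen. Promoter sequences are from RefSeq (GRCm38.p6). Alternatives changed the background correction, the normalization, the source of values, the averaging of dye pairs, the prior, the filter on dim probes, the probe rule and each array in turn. Initiation factor genes without a counted probe were not analysed here, among them Eif1, Eif2s1, Eif2b5, Eif4g1, Eif4h and Eif5b.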

Additional observations from a re-analysis of the deposited data

How the results depend on the processing

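No call of a member was reversed under any of the 18 alternatives. Calls held under all 18 for Eif2s2, Eif1ad and Eif4ebp1 over time in wild type and for Eif2b4 at 0 h and 12 h between the populations. The number of members called in wild type over time, 11, was 6 with dye pairs averaged and ranged from 4 to 18 when arrays were left out in turn. In Ser585Gly the number, 11, was 18 with print-tip loess, with the deposited table and with the comparison as a random block, 7 with dye pairs averaged, and 0 to 15 with an array left out; the share of all genes was 21.5% to 21.7% under the first 3 of these settings. In wild type the number was 15 with print-tip loess and 16 with the deposited table and with the random block. Under these settings 20.1%, 20.8% and 20.3% of all genes were called. Median centring gave 10 higher and 2 lower in wild type (7.51% of all genes) and 13 and 1 in Ser585Gly (9.3%). Between the populations at 0 h the number, 1, was 2 with background subtracted, with no background correction, with a trended prior and with the mean of a gene's probes, 5 with print-tip loess and with dim probes left out, 6 with the deposited table and 12 with the random block; the share of all genes called, 4.73%, was 10.8%, 8.45%, 13.5% and 16.8% under these 4 settings and 4.87% to 6.19% under the others named. At 12 h the number, 2, was 1 with median centring and with dye pairs averaged, 1 or 2 with an array left out, 5 with the random block and 11 with the deposited table (7 higher and 4 lower), where 5.87% and 11.6% of all genes were called. Print-tip loess and the mean of a gene's probes each gave 3 at 12 h, where 5.29% and 2.08% of all genes were called. With median centring the share of all genes at 12 h was 1.47%. The interaction count stayed at 0. The causes were not tested. Under no setting did the median of all genes leave 0 by more than 0.1 on the log2 scale.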

Other observations

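Some wells that the deposited table codes as controls carry the names of members and were left out of the counts. A bright Eif3c well (percentile 96.7) had log2 ratios of 0.49 and 0.80 over time in wild type and 0.18 and 0.62 in Ser585Gly. A bright Eif4g2 well (percentile 93.3), also named empty, had ratios of 0.43 and 0.65 in wild type and 0.47 and 0.98 in Ser585Gly. Both were above 0 on all 4 time arrays, as the counted probes of these genes were. The other Eif4g2 well, at the 37.1 percentile and not named empty, had mixed signs, at −0.20 and 0.15 in wild type and −0.32 and 0.15 in Ser585Gly. The other Eif3c well, named empty too, lay at the 0.0304 percentile, with ratios of −0.06 and −0.31 in wild type and 0.31 and 0.27 in Ser585Gly.

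Ddit3, the stress-response transcription factor CHOP and a gene of the wider translation list, had log2 ratios of 0.59 and 0.29 over time in wild type and −0.25 and −0.48 in Ser585Gly. The fitted changes were 0.43 and −0.36 (limma adjusted p = 0.0229 and 0.0443), and both calls were lost with dye pairs averaged. The difference of −0.79 between the changes did not pass (adjusted p = 0.0696). That difference passed under 7 of 17 alternatives, background subtracted, no background correction, print-tip loess, the deposited table, the random block, a trended prior and dim probes left out, and its adjusted p ranged from 0.0105 to 0.577 over the 17, with 0.12 to 0.438 when an array was left out. The wild-type call was lost without any 1 of 4 arrays (adjusted p up to 0.19) and the Ser585Gly call without any 1 of 7 (up to 0.343).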
